A study of Mus musculus with 6 samples.

Results

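The nuclear-encoded genes of the mitochondrial respiratory chain and of ATP synthase were compared in alveolar macrophages of mice, phagocytes that live in the air spaces of the lung. Members were chosen by gene name alone: every listed gene whose symbol starts with Nduf, Sdh, Uqcr or Atp5, or with Cox followed by a digit. This gave 100 of the 11789 genes in the deposited table, of which 99 passed a minimum mean of 1 FPKM (fragments per kilobase of transcript, scaled to the mapped fragments of the library) and were tested. By role, 79 were placed as subunits and 21 as assembly factors.

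The RNA-seq series holds 6 libraries from C57BL/6 mice, all exposed to an agent labelled BLM. Libraries BLM1, BLM2 and BLM3 were taken as wild type, and A20-1, A20-3 and A20-4 as A20 conditional knockout. A20, encoded by Tnfaip3, is a ubiquitin-editing inhibitor of NF-kB signalling. Neither the Cre driver, the deleted exons, the cells in which deletion occurs, the dose nor the day is given by the labels, and no unexposed group was analysed here. Whether a library comes from 1 animal or from several is not given either, so a p-value here reflects the spread among these libraries alone, which may be technical.

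The respiratory chain lies in the inner mitochondrial membrane. Complex I takes electrons from NADH and complex II from succinate, coenzyme Q carries them to complex III, and cytochrome c carries them on to complex IV, which reduces oxygen. Complexes I, III and IV pump protons, and ATP synthase (complex V) uses the resulting gradient to make ATP. Complex II is wholly nuclear-encoded, whereas the other complexes also contain subunits made from the mitochondrial genome. Alveolar macrophages are known for a strong reliance on mitochondrial respiration.

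The libraries did not stand alike. Across all genes BLM3 correlated with BLM1 and BLM2 at a Pearson r of only 0.925 and 0.913, against 0.982 between those 2, while over the members alone every pair of the 6 libraries lay between 0.973 and 0.993. Genes are not independent replicates, so these values describe the libraries only. The FPKM of Tnfaip3 was 8.44, 12.9 and 6.80 in the libraries labelled knockout, against 4.47 in BLM1, 2.18 in BLM2 and 21.6 in BLM3, so its level does not separate the labels. A whole-gene value also counts exons that a deletion would leave. The sum over 14 alveolar macrophage markers was 5865 to 8275 FPKM in the knockout and 4236 to 7555 in the wild type, with 1 of 14 called (Marco, lower). Of these 14, 11 had a higher mean in the knockout, among them Krt79 (log2 difference 2.69) and Cidec (2.47) with groups apart. The 3 lower ones were Marco, Lpl (-0.80) and Fabp4 (-0.60). The median log2 difference was 0.62, but without BLM3 it was 0.17, with 6 of 14 negative. Siglecf, which defines these cells in the mouse, was at 11.1 to 43.5 FPKM. The sum over 10 markers of recruited macrophages, of which Itgam is listed under 2 gene IDs, was 606.7 to 725.9 against 1928 to 2347 FPKM, with 5 of these 11 entries called lower. Neutrophil markers summed to 82.85 to 129.1 against 139.5 to 2770 FPKM, with 0 called of the 6 tested; the highest was BLM3, and Ly6g, a defining marker, was listed at 0 in A20-3, A20-4, BLM1 and BLM2. Lymphocyte markers (9 genes) summed to 102.3 to 116.2 against 72.12 to 258.1 FPKM, and the 8 epithelial markers to 303.3 to 391.8 against 63.99 to 191.2 FPKM, with 0 called in either list. The part of these cell types in the results on members was not tested. In bulk RNA, fewer cells of a type and less RNA per cell cannot be told apart.

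None of the 99 members passed limma's test at an adjusted p of 0.05, with 0 called higher and 0 called lower. Most differences were nevertheless small and negative: 80 of 99 members had a lower mean log2(FPKM + 1) in the knockout, with a median of -0.17 against 0.02 over all 10696 genes tested. Among accessory subunits of complex I, which surround its catalytic core, all 29 differences were negative with the values as deposited. Atp5b, the catalytic beta subunit of ATP synthase, and Uqcrfs1, the Rieske iron-sulfur protein of complex III, went the other way, with each knockout library above every wild-type library.

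Against these counts, limma called 1.1% of all genes tested in either direction, 0.252% higher and 0.851% lower. The smallest adjusted p of any member was 0.104 by limma, for Ndufs4. In size, the smallest log2 difference called in any gene was 0.575, and the largest of any member was 0.562. At an unadjusted p under 0.05, 1 member was higher and 24 were lower, where the shares over all genes were 11% higher and 9.3% lower. The 3 knockout values lay wholly below the 3 wild-type values for 34 members (34.3%) and wholly above for 2 (2.02%). Over all genes tested these shares were 13.1% and 15.9%. With array weights, an alternative fit that weights libraries by their spread and gave BLM1 a weight of 6.09 and BLM3 one of 0.229, limma called 1 member higher (Atp5b) and 18 lower, beside 8.81% and 9.27% of all genes. Without BLM3, limma again called 0 members, beside 1.35% of all genes called higher and 2.5% called lower; 83 of 99 differences were then negative, with a median of -0.22. Leaving out each library in turn gave member medians between -0.23 and -0.12, and 78 members kept 1 sign throughout. The choice of scale also matters: rescaling each library to TPM moved the median of all genes by 0.08, and left 68 of 99 members negative with a median of -0.10. Removing from all genes a trend on transcript length and GC content left 52 of 99 negative with a median of -0.02, the largest shift among the settings tried. Relative to the median of all genes, members lay at -0.195 with the deposited values and at -0.204 with TPM.

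**Figure D1:**
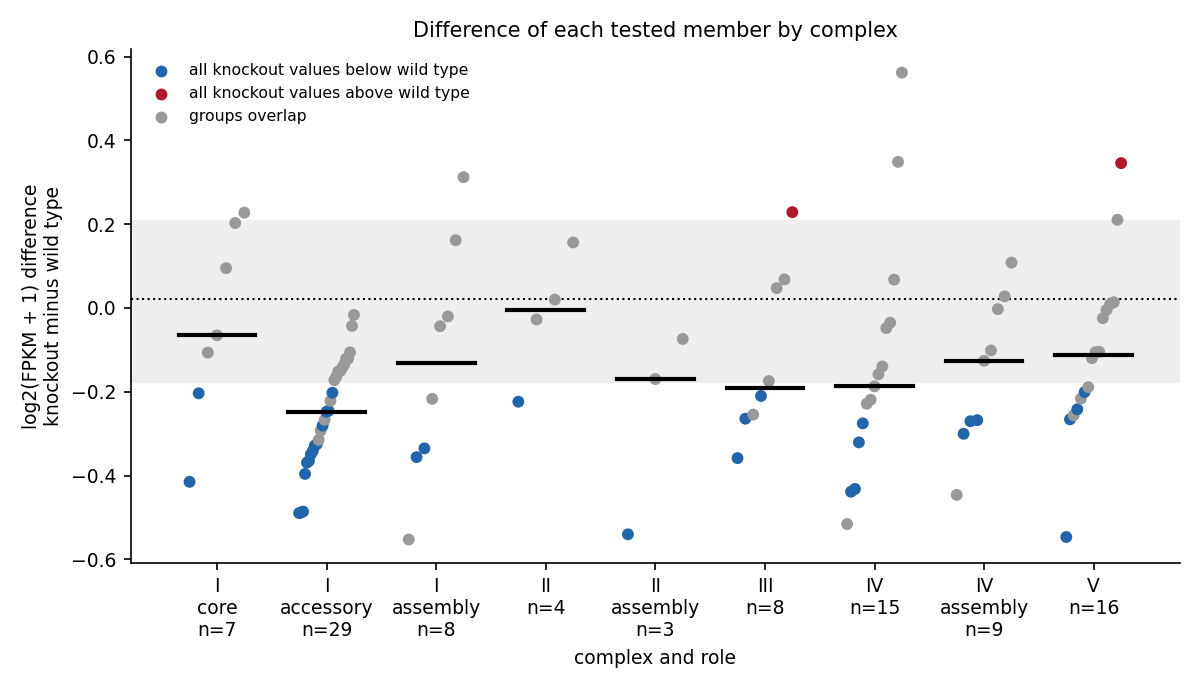
Difference in log2(FPKM + 1), knockout minus wild type, of each tested member (points), by complex and role, with the median of each set (bar); the dotted line and grey band are the median and the interquartile range of all genes tested. With these deposited values all 29 accessory subunits of complex I lie below 0 (27 with TPM), and the 2 red points are Uqcrfs1 and Atp5b.

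The level of each set was also read library by library. Summed FPKM over all members came to 3797 in A20-1, 4221 in A20-3 and 3815 in A20-4, against 4296 in BLM1, 4776 in BLM2 and 4057 in BLM3. BLM2 was the highest library and A20-3 the highest of the knockout, above BLM3, so the groups overlapped. The mean of the sums was 3944 ± 240.0 for the knockout and 4376 ± 366 for the wild type (SD, n = 3 each), a difference of -9.87%. The sum over all genes tested itself differed by -5.63%. As a share of all FPKM the members made up 1.43%, 1.52% and 1.42% in the knockout and 1.53%, 1.62% and 1.42% in the wild type, with BLM3 the lowest of the 6 libraries. By complex, the mean summed FPKM of the subunits differed by -17.6% for the complex I accessory set, -2.90% for the complex I core, -0.189% for complex II, -9.88% for complex III, -9.21% for complex IV and -3.27% for complex V. Only the accessory set of complex I, among these 6 subunit sets, had every knockout sum below every wild-type sum. As shares of all FPKM its values were 0.357%, 0.380% and 0.353% against 0.417%, 0.438% and 0.393%, with no overlap. Outside the subunit sets, the sums of the complex I assembly factors were also apart (36.7 to 39.3 against 41.8 to 45.8). So were those of complex IV assembly (78.7 to 93.85 against 95.8 to 98.7) and of further assembly genes described below (519.8 to 557.9 against 621.1 to 674.8). Complex II assembly overlapped. As shares, complex I assembly and the further assembly genes stayed apart, and complex IV assembly overlapped. The shares of the other subunit sets overlapped, and for 3 of them the mean was higher in the knockout. The complex I core was at 0.0692%, 0.0740% and 0.0684% against 0.0698%, 0.0688% and 0.0672%. Complex II was at 0.0781%, 0.0756% and 0.0807% against 0.0784%, 0.0768% and 0.0662%. Complex V was at 0.294%, 0.305% and 0.297% against 0.288%, 0.316% and 0.2697%.

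**Figure D2:**
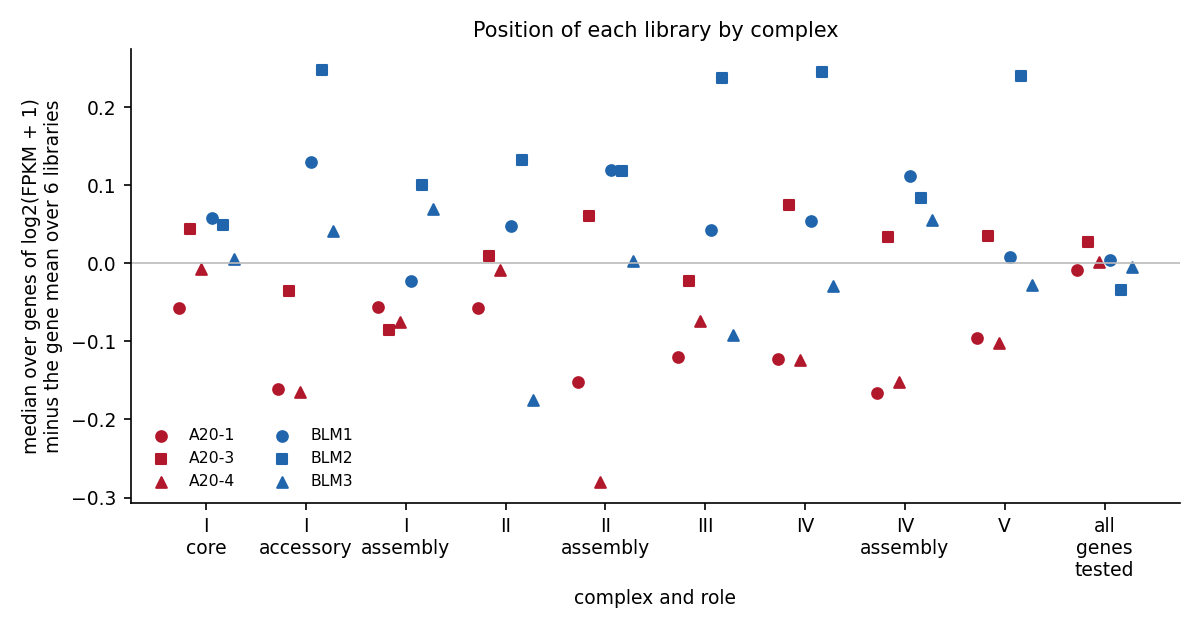
For each complex and role, the median over genes of log2(FPKM + 1) minus that gene's mean over the 6 libraries, with 1 point per library (red, knockout; blue, wild type). For the accessory set of complex I the knockout libraries lie at -0.16, -0.04 and -0.16 and the wild-type libraries at 0.13, 0.25 and 0.04; for complex V the groups overlap.

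The start-site windows of 5 members are shown because they include both members whose knockout values lay above the wild type (Atp5b and Uqcrfs1) and 3 whose values lay below it (Cox20, Atp5l and Ndufs5). They were chosen after their values were seen. The 3 lower ones were picked for holding the most kinds of the motifs marked below, with ties going to the smaller limma p. Each is the RefSeq sequence of GRCm38.p6 upstream of the gene start, 5′ to 3′ on the gene's strand. Capitals mark exact matches, on either strand, to a core of the NRF1 motif (GCGCANGCG), to an ETS motif (CCGGAAG) or to a YY1 motif (AAGATGGC), which belong to factors known to act on many respiratory chain genes. The windows are chr10:128083057-128083272, plus strand, for Atp5b; chr13:30545363-30545566, minus strand, for Uqcrfs1; chr1:178318903-178319129, plus strand, for Cox20; chr9:44920743-44920992, minus strand, for Atp5l; and chr4:123718203-123718436, minus strand, for Ndufs5.
Atp5b: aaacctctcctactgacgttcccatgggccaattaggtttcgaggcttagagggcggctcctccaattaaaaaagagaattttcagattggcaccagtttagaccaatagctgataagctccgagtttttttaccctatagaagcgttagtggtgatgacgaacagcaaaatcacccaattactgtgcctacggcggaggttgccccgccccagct
Uqcrfs1: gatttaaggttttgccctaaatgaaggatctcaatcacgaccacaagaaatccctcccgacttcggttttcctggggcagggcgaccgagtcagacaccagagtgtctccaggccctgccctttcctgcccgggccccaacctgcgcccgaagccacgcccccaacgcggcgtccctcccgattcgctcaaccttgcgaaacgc
Cox20: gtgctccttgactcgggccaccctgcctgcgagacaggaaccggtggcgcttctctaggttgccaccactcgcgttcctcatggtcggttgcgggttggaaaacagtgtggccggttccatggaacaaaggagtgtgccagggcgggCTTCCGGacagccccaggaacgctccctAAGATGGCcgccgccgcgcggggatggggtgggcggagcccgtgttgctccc
Atp5l: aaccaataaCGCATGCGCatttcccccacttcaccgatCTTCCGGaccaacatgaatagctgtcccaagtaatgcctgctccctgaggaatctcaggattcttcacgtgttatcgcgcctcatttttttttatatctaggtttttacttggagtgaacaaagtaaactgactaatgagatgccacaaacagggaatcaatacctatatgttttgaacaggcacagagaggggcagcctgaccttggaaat
Ndufs5: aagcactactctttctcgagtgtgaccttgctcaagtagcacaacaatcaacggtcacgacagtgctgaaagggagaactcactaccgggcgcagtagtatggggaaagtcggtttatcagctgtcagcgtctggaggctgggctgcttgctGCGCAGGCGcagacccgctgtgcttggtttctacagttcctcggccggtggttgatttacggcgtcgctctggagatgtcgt
The Cox20 window holds 1 ETS and 1 YY1 match, the Atp5l window 1 NRF1 and 1 ETS match, and the Ndufs5 window 1 NRF1 match. None of the 3 motifs was found in the windows of Atp5b and Uqcrfs1, which says nothing of the factors. The 3 lower windows were picked for their matches, so this contrast was fixed by the choice.

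In all, 83 of the 100 members matched RefSeq windows, 89 windows in number. In the 250 bases before the start, 17 of 89 (19.1%) held the NRF1 core, 20 (22.5%) the ETS motif and 2 (2.25%) the YY1 motif. Over the 10715 windows of genes tested these shares were 11.4%, 14.3% and 2.08%, and over all 32851 RefSeq windows they were 5.16%, 6.91% and 1.56%. Among the 28 windows of members whose knockout values lay wholly below the wild type, 7 held the NRF1 core (25%), 7 the ETS motif (25%) and 1 the YY1 motif (3.57%). A match describes the letters and is not a binding site.

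Complex I was the largest set, with 44 members. The median difference was -0.07 over the 7 nuclear core subunits, which carry the flavin and the iron-sulfur clusters, -0.25 over 29 accessory subunits and -0.13 over 8 assembly factors. Groups did not overlap, with the knockout lower, for 2 of 7 core subunits, 14 of 29 accessory subunits and 2 of 8 assembly factors, where the share over all genes tested was 13.1%, and 25.4% among genes under 700 bases. No member of complex I was higher in every knockout library. With TPM the core median was 0.02, so its sign depends on the scale, and 27 of 29 accessory differences were negative (Ndufb2 and Ndufb11 were not). After removal of a trend on length and GC content, 21 of 29 were negative, with a median of -0.10, and 26 of 29 were negative without A20-1 or without BLM2.

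Ndufs4 (ENSMUSG00000021764.7, GRCm38 chr13:114287795-114388258, minus strand), an accessory subunit near the NADH-oxidising module, had the smallest p of the members. It was at 13.6, 13.7 and 13.4 FPKM in A20-1, A20-3 and A20-4 (the order used throughout), against 17.2, 18.6 and 17.6 in BLM1, BLM2 and BLM3. The knockout libraries were nearly level with each other and all below the wild type, and the difference was -0.37 on the log2(FPKM + 1) scale (SE 0.09; adjusted p = 0.104 by limma). Ndufa1 (ENSMUSG00000016427.7, GRCm38 chrX:37187588-37191163, minus strand), a small membrane subunit, was at 92.4, 90.8 and 72.0 FPKM in the knockout and at 122, 120.5 and 115 in the wild type. A20-4 was its lowest library, and the groups did not overlap (log2 difference -0.49, SE 0.13; adjusted p = 0.118 by limma). It had the most negative difference of the accessory set. Ndufv3, a subunit of the flavoprotein part, was at 17.8, 15.9 and 13.95 FPKM against 22.03, 25.6 and 20.3. All 3 knockout libraries were again below the wild type, with a log2 difference of -0.49 (SE 0.13; adjusted p = 0.126 by limma).

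Ndufs5, whose window is shown above, was at 28.4, 34.4 and 34.1 FPKM in the knockout and 41.1, 45.4 and 41.7 in the wild type. Ndufb4 was at 28.0, 26.6 and 18.9 against 34.3, 37.9 and 30.9 FPKM. Ndufb9 was at 48.6, 47.0 and 51.5 against 62.2, 64.4 and 58.5 FPKM. For each of these 3 accessory subunits the groups were apart, with log2 differences of -0.40, -0.49 and -0.33. The accessory set also held genes whose groups overlapped widely. Ndufa12 spanned 13.3 to 23.0 FPKM in the knockout and 16.1 to 32.9 in the wild type, where BLM2 alone was high. Ndufb2 had the difference nearest to 0 of the accessory set (-0.02).

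The core subunits differed in both directions. Ndufv1, the FMN-binding subunit that oxidises NADH, was at 16.5, 19.1 and 17.4 FPKM in the knockout and 14.2, 16.6 and 14.8 in the wild type (log2 difference 0.20). Its groups overlapped between A20-1 and BLM2. Ndufs1, the large iron-sulfur subunit, and Ndufs7, a subunit near the quinone site, lay at 0.09 and -0.07. Ndufs7 turned positive (0.02) with TPM. Ndufv2, the partner of Ndufv1, was at 26.4, 30.0 and 19.9 FPKM in the knockout and 32.5, 33.3 and 35.5 in the wild type, with the groups apart. Its log2 difference was -0.41, the most negative of the core. Ndufs8 was the other core subunit whose groups did not overlap, at 35.5, 36.7 and 37.3 against 45.1, 42.3 and 39.4 FPKM (log2 difference -0.20).

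Among the assembly factors of complex I, Ndufaf4 and Ndufaf5 gave the ends of the range. Ndufaf4 was at 2.01, 2.39 and 1.75 FPKM in the knockout and 1.80, 4.43 and 4.82 in the wild type. BLM1 lay with the knockout libraries, so the groups overlapped despite a log2 difference of -0.55 (SE 0.29), which was -0.89 without BLM1 and -0.36 without BLM3. Ndufaf5, which acts early on a core subunit, was at 4.01, 5.40 and 4.54 against 4.08, 2.94 and 3.63 FPKM. A20-1 lay between wild-type values there, and the log2 difference was 0.31 (SE 0.15). Ndufaf8 was at 11.2, 11.02 and 11.1 FPKM in the knockout and 14.7, 16.3 and 12.6 in the wild type, with a log2 difference of -0.36 and no overlap.

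Complex II showed no common direction. Its 4 subunits had a median difference of -0.004, which became 0.08 with TPM and -0.09 without BLM3. Sdhb, the iron-sulfur subunit, was at 39.3, 38.9 and 41.7 FPKM in the knockout and 47.6, 47.4 and 45.4 in the wild type. All 3 knockout values were below the wild type (log2 difference -0.22, SE 0.09; adjusted p = 0.236 by limma). Sdha, the flavoprotein that oxidises succinate, was at 64.1, 61.4 and 67.1 against 64.0, 58.3 and 51.0 FPKM. BLM3 was its lowest library and the groups overlapped, with a log2 difference of 0.16, which was 0.07 without BLM3. The membrane anchors Sdhc and Sdhd lay at -0.03 and 0.02. Each turned sign in at least 1 setting: Sdhc was at 0.05 with TPM, and Sdhd at -0.09 without BLM3.

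Of the 4 assembly factors of complex II, Sdhaf3 was listed but lay under the minimum, at 0.70, 0.66 and 0.58 FPKM in the knockout and 0.72, 0.85 and 0.64 in the wild type. Sdhaf1, which helps insert the iron-sulfur clusters of Sdhb, was at 3.96, 3.95 and 2.89 against 5.67, 4.88 and 6.49 FPKM. Its groups were apart, with a log2 difference of -0.54 (SE 0.15; adjusted p = 0.127 by limma). Sdhaf2 and Sdhaf4 overlapped between the groups.

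Complex III split by subunit. Its 8 members had a median of -0.19 (-0.09 without BLM2), with 5 negative. In the knockout 3 were wholly lower (37.5%: Uqcrq, Uqcr10 and Uqcrb) and 1 wholly higher (12.5%: Uqcrfs1). Over all genes tested these shares were 13.1% and 15.9%. Uqcrfs1 (ENSMUSG00000038462.3, GRCm38 chr13:30540308-30545362, minus strand) was at 57.7, 62.7 and 55.5 FPKM in the knockout and 50.6, 50.6 and 48.3 in the wild type. The groups did not overlap, and the log2 difference was 0.23 (SE 0.10; adjusted p = 0.251 by limma). The core proteins Uqcrc1 and Uqcrc2 lay near 0, at 0.07 and 0.05, and Uqcrc2 was at -0.02 without BLM3. Uqcrq, a small subunit, was at 28.4, 30.4 and 24.9 against 35.9, 41.1 and 31.5 FPKM. Uqcr10, another small subunit, was at 71.9, 80.3 and 74.2 against 86.0, 105 and 82.5 FPKM. Both had every knockout value below the wild type, with log2 differences of -0.36 and -0.26. For Uqcr10 it was -0.16 without BLM2. Cyc1, the cytochrome c1 of this complex, is missed by the name rule. It was at 47.2, 55.0 and 51.9 against 49.8, 54.2 and 45.2 FPKM, with overlap.

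The 15 subunits of complex IV had a median of -0.19, with 12 negative and 4 wholly lower in the knockout (26.7%). Over all genes tested the share wholly lower was 13.1%, and among genes under 700 bases 25.4%, near that of this set, whose median length was 618 bases. The complex IV median was -0.11 without BLM2 and -0.28 without A20-3. This set held the most abundant members: Cox8a at 201 ± 33.4 FPKM against 223 ± 22.4, Cox6b1 at 177 against 203 and Cox6a1 at 160.4 ± 17.3 against 177 ± 20.1 (knockout against wild type, SD, n = 3 each). All 3 had overlapping groups. Cox6c (ENSMUSG00000014313.15, GRCm38 chr15:35925886-35938246, minus strand), a small subunit around the catalytic core, was at 14.01, 15.3 and 13.6 FPKM in the knockout and 18.9, 17.6 and 22.6 in the wild type. The groups were apart, with BLM3 the highest (log2 difference -0.43, SE 0.12; adjusted p = 0.131 by limma). Cox5b, which binds zinc, had its groups apart at -0.28 (-0.15 without BLM2), and Cox7b at -0.32. Cox4i1 and Cox5a, which join the catalytic core early in assembly, lay at -0.04 and 0.07. Cox4i1 was at 0.05 with TPM, and Cox5a at -0.09 without BLM3.

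Isoforms of complex IV, which differ in the tissues where they are usually found, were read against each other. Cox6b2, known from testis, was at 7.17, 11.6 and 10.4 FPKM in the knockout and 7.28, 9.72 and 3.10 in the wild type. BLM3 was far below the rest, and the log2 difference of 0.56 (SE 0.36) was 0.16 without it and 0.85 without BLM2, so these libraries decide the value. The common form Cox6b1 lay at -0.19 (-0.11 without BLM2). Cox7a1, known from heart and skeletal muscle, was at 3.54, 2.88 and 4.28 against 7.38, 6.16 and 3.53 FPKM. Here BLM3 lay among the knockout values (log2 difference -0.52, -0.77 without BLM3 and -0.33 without BLM1). The common forms Cox7a2 and Cox7a2l, the latter linked to supercomplexes, lay at -0.22 and -0.05. Cox7a2 was at -0.14 without A20-4 or without BLM2, and Cox7a2l was at 0.04 with TPM. Cox6a2, another muscle form, was near the minimum in all libraries, at 0.43 to 1.17 against 1.27 to 1.88 FPKM, with the groups apart (log2 difference -0.44, and -0.25 without A20-1). Ndufa4, named for complex I and now assigned to complex IV, was at 26.2, 35.4 and 36.6 FPKM in the knockout and 28.8, 29.1 and 19.2 in the wild type. Its groups overlapped, with BLM3 lowest (log2 difference 0.35, and 0.16 without BLM3). No values of Cox4i2, Cox8b or Ndufa4l2 were analysed here.

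The 9 assembly factors of complex IV had a median of -0.13, with 7 negative and 3 wholly lower (33.3%: Cox10, Cox11 and Cox20). The share over all genes tested was 13.1%. Cox10, which makes heme O for heme A, was at 5.67, 5.61 and 5.95 FPKM in the knockout and 8.25, 7.12 and 6.62 in the wild type. The log2 difference was -0.30 (SE 0.11; adjusted p = 0.198 by limma). Cox20, whose window holds the ETS and YY1 letters, was at 19.0, 22.5 and 20.3 against 24.6, 25.8 and 24.6 FPKM. Its groups were likewise apart. Cox17, a copper chaperone, was at 6.33, 8.57 and 5.09 against 8.06, 8.47 and 11.6 FPKM. A20-3 lay among the wild-type values, with a log2 difference of -0.45 (SE 0.21), which was -0.29 without A20-4.

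In ATP synthase the differences ran from -0.55 (Atp5k) to 0.35 (Atp5b). The 16 members had a median of -0.11, with 12 negative, 4 wholly lower (25%) and 1 wholly higher (6.25%). Over all genes tested the shares wholly lower and wholly higher were 13.1% and 15.9%. The complex V median was -0.05 without BLM2 (9 negative), -0.06 without A20-4 and -0.18 without BLM1, and -0.03 with TPM. Atp5b (ENSMUSG00000025393.12, GRCm38 chr10:128083273-128090391, plus strand) was at 109, 117 and 128 FPKM in the knockout, against 92.2, 99.7 and 85.9 in the wild type. Every knockout library was above every wild-type library, and the means were 118 ± 9.83 and 92.6 ± 6.95 FPKM (SD, n = 3 each). The log2 difference was 0.35 (SE 0.11; adjusted p = 0.174 by limma), from 0.28 to 0.40 as each library was left out. Atp5a1, the alpha subunit of the same head, was at 122, 123 and 159 against 119.6, 127 and 100.4 FPKM. A20-4 was high and BLM3 low, and the groups overlapped (log2 difference 0.21, SE 0.15). It was 0.09 without A20-4 and 0.11 without BLM3. Atp5c1, the central stalk, lay at 0.01, and at -0.004 after centring each library on its median gene.

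Atp5k (ENSMUSG00000050856.16, GRCm38 chr5:108433244-108434448, minus strand), subunit e of the membrane part, was at 53.8, 57.8 and 44.4 FPKM in the knockout and 78.5, 87.3 and 64.0 in the wild type. The groups were apart, and its log2 difference of -0.55 (SE 0.16; adjusted p = 0.138 by limma) was the most negative of complex V. Atp5s, named as a coupling factor, was low in all libraries, at 1.83, 1.67 and 1.98 against 2.26, 2.65 and 2.30 FPKM. Its groups were also apart (log2 difference -0.27). Atp5h, subunit d of the peripheral stalk, and Atp5l, subunit g, were the other 2 with no overlap, at -0.24 and -0.20. For Atp5l the gap was slight, between 16.03 FPKM in A20-3 and 16.05 in BLM3. The 3 genes for the identical proton-carrying subunit c did not share a direction: Atp5g1, Atp5g2 and Atp5g3 lay at -0.02, -0.26 and 0.01. Each turned sign in some setting, for Atp5g2 when A20-4 was left out (0.08), for Atp5g1 with TPM (0.06), and for Atp5g3 without BLM3 (-0.13). A20-4 was the low library of Atp5g2, at 24.5 FPKM beside 50.1 and 50.7. Usmg5, a small ATP synthase subunit that the name rule misses, was at 130, 149 and 116 against 170.4, 194 and 188 FPKM, with the groups apart (log2 difference -0.49, SE 0.13).

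**Figure D3:**
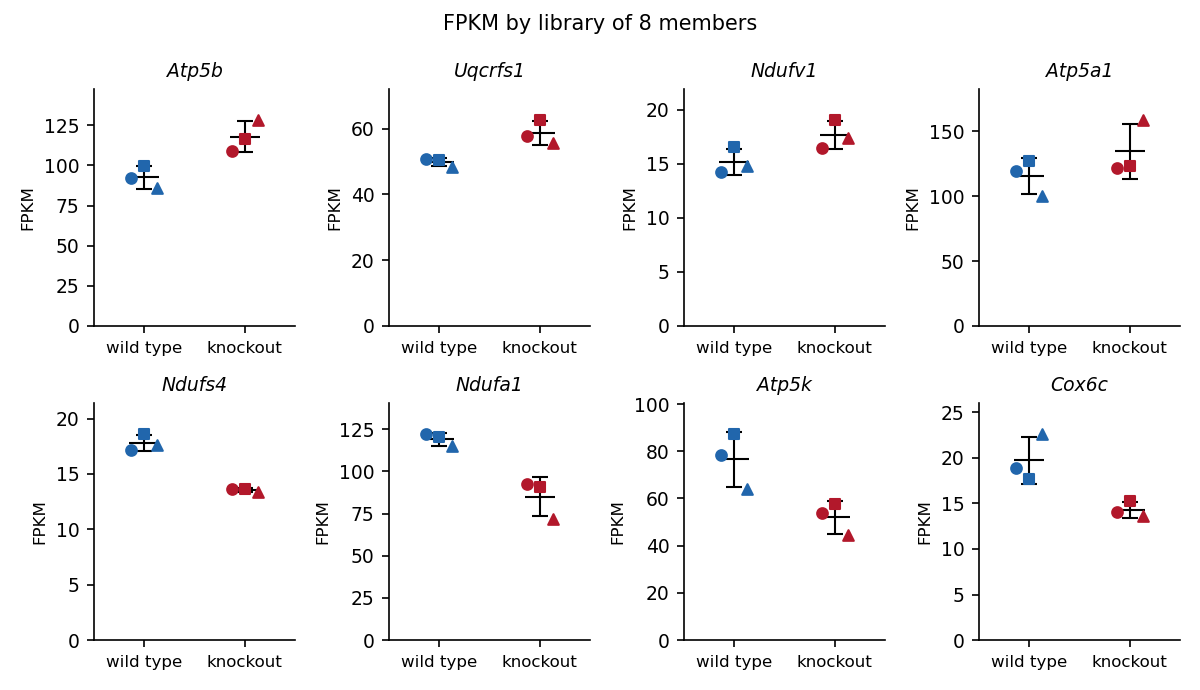
FPKM of 8 members in each wild-type library (blue) and knockout library (red), with mean and SD (n = 3 each) and axes from 0. The groups do not overlap for Atp5b and Uqcrfs1 (knockout above) and for Ndufs4, Ndufa1, Atp5k and Cox6c (knockout below), and overlap for Ndufv1 and Atp5a1.

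Transcript length moved with the differences. Over 99 members the Spearman correlation of transcript length with the log2 difference was 0.31, and over 10684 genes tested it was 0.30; both are across genes of the same 6 libraries. The median length of the members was 815 bases against 2690 over all genes tested. Under 700 bases, the median difference was -0.24 over 40 members and -0.17 over 426 genes tested. From 700 to 1500 bases it was -0.13 over 36 members and -0.10 over 1773 genes. At 1500 bases or more it was -0.07 over 23 members and 0.06 over 8485 genes. The share with knockout wholly below wild type was 40.0% of members and 25.4% of genes in the shortest class, and 21.7% and 10.7% in the longest.

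Negative differences were more frequent among short members, at 37 of 40 under 700 bases (92.5%) and 14 of 23 at 1500 or more (60.9%). Over all genes tested these shares were 74.2% and 41.8%. Single members did not divide cleanly by length. Atp5b, Atp5a1, Sdha and Uqcrfs1 have transcripts of 1916, 2471, 2900 and 1363 bases, while Atp5k, Ndufa1 and Cox6c have 371, 419 and 503. Cox6b2 (553 bases) and Ndufa4 (468), the members with the most positive differences (0.56 and 0.35), were short, but each was at 0.16 without BLM3. Ndufs4 (1698 bases), Ndufv3 (1582) and Sdhaf1 (2490) were lower without being short. After a trend on length and GC content was taken from the differences of all genes, the member median was -0.02 and 52 of 99 were negative, with 28 members changing sign. The medians were then -0.10 for the complex I accessory set (21 of 29 negative), 0.06 for the complex I core, 0.14 for complex II, 0.06 for complex III, 0.02 for complex IV and -0.007 for complex V. Atp5b was at 0.39 and Uqcrfs1 at 0.34 on this scale, Ndufs4 at -0.26 and Ndufv3 at -0.42. Ndufa1 was at -0.25, Cox6c at -0.21, Uqcr10 at -0.05, Cox20 at -0.02 and Atp5l at 0.02, each nearer to 0 than before.

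**Figure D4:**
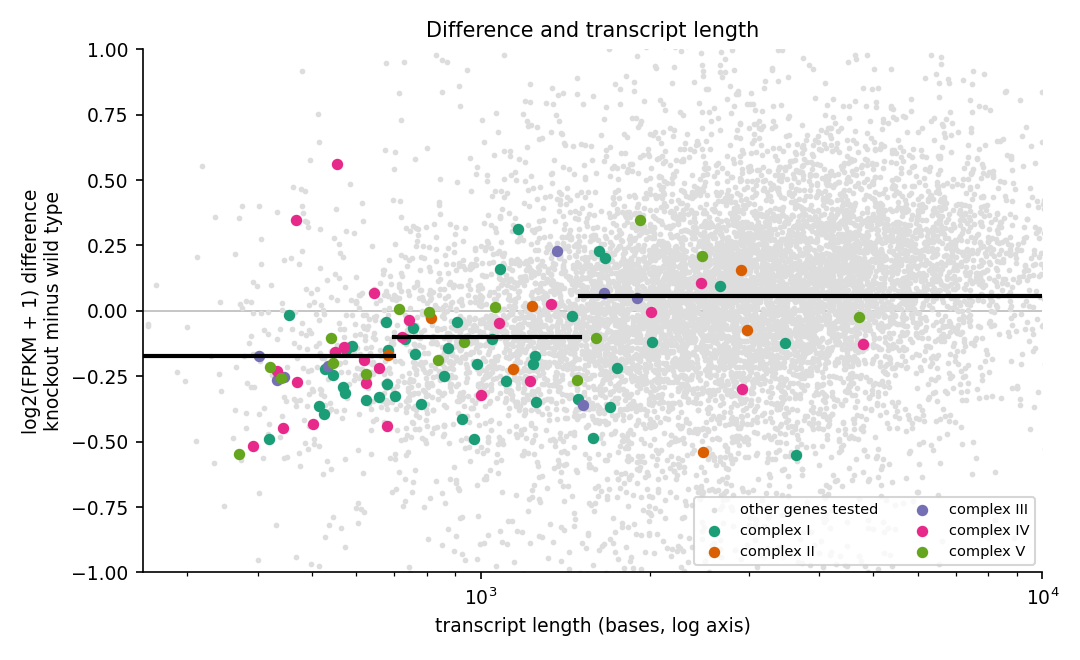
Transcript length (bases, log axis) against the log2(FPKM + 1) difference, knockout minus wild type, of members by complex (colours) and of other genes tested (grey), cropped to the range that holds the members. Black bars are the medians of all genes tested in 3 length classes, at -0.17, -0.10 and 0.06.

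The mitochondrial genome encodes the other 13 subunits of complexes I, III, IV and V. By limma 0 of 13 passed, with 1 lower at an unadjusted p under 0.05, where the share over all genes was 9.3%. All 13 differences were negative with the deposited values, with a median of -0.36; 12 of 13 were negative after quantile normalization, 9 with the length and GC trend removed and 7 without A20-4. The sums were 18560 FPKM in A20-1, 19030 in A20-3 and 10720 in A20-4, against 19710 in BLM1, 22630 in BLM2 and 17450 in BLM3. A20-4 was far below the rest, and without it the median was -0.05. The share of all FPKM in these genes was 6.97%, 6.86% and 4.0% in the knockout and 7.03%, 7.68% and 6.12% in the wild type. Only mt-Nd3, mt-Nd1 and mt-Co2 of the 13 (23.1%) had every knockout value below the wild type, against 13.1% of all genes tested. A20-4 was not low in the same way for the nuclear members, where its sum of 3815 lay beside the 3797 of A20-1.

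**Figure D5:**
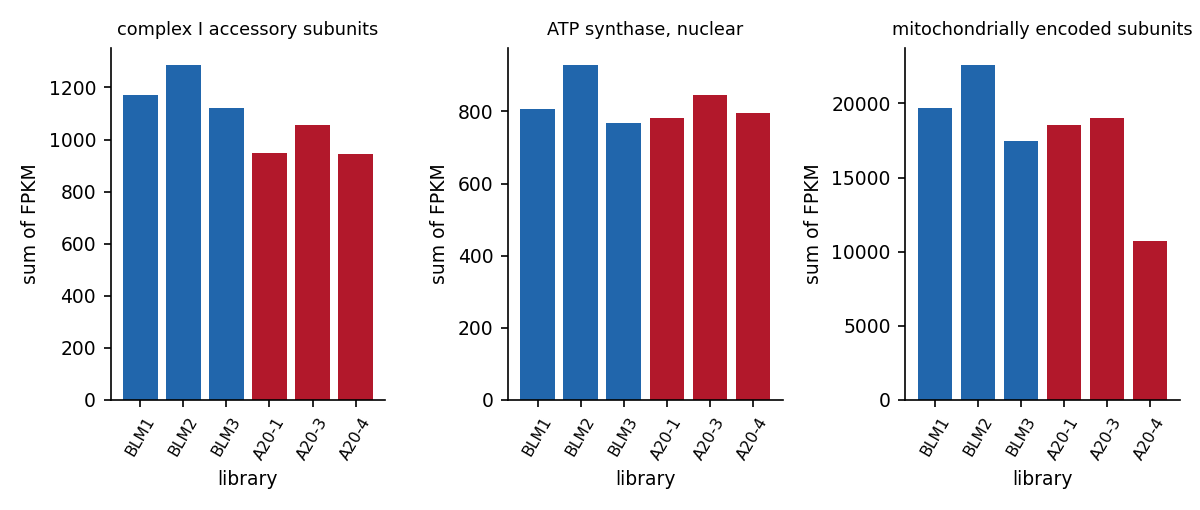
Summed FPKM per library (wild type blue, knockout red) of complex I accessory subunits, nuclear subunits of ATP synthase and the 13 mitochondrially encoded subunits, with axes from 0. The groups are apart in the first panel and overlap in the second, and in the third A20-4 stands lowest at 10720.

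The other 4 lists of the pathway had 0 genes called by limma in either direction. These were 34 other genes of assembly and stability (median -0.06; 2 higher and 7 lower at an unadjusted p under 0.05, where the shares over all genes are 11% and 9.3%), 16 genes of electron carriers and coenzyme Q synthesis (0.07; 2 and 1), 14 of the citric acid cycle (0.05; 0 and 0) and 17 of mitochondrial biogenesis (0.13; 3 and 1). In the first list Pet100, an assembly factor of complex IV, was at 13.4, 12.6 and 12.8 FPKM in the knockout and 18.03, 19.8 and 19.7 in the wild type. The libraries of each group were tight and apart, with a log2 difference of -0.54 (SE 0.09; adjusted p = 0.0592 by limma, and 0.0472 without BLM3). Atpif1, the inhibitor of ATP synthase, was at 52.4, 54.6 and 53.0 against 73.7, 77.9 and 55.6 FPKM (adjusted p = 0.241 by limma, and 0.0414 without BLM3). So leaving out BLM3 brought both past the threshold, as lower. That setting called 2.5% of all genes lower, against 0.851% with all 6 libraries.

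Of the coenzyme Q genes, Coq7, a hydroxylase of the pathway, was at 1.41, 1.26 and 1.11 FPKM in the knockout and 2.02, 1.69 and 1.90 in the wild type, and Coq8b was higher in every knockout library (4.21, 4.43 and 4.04 against 3.43, 3.33 and 3.14). In the citric acid cycle the smallest p values belonged to Dlst and Ogdh, both of the 2-oxoglutarate dehydrogenase complex, at log2 differences of 0.21 and 0.29. Dlst was at 0.13 without A20-4, and Ogdh at 0.13 without BLM3. Gabpa, an ETS factor known to act on genes of complex IV, was at 13.3, 11.2 and 11.9 against 9.12, 8.07 and 10.3 FPKM. Polrmt, the mitochondrial RNA polymerase, was at 3.75, 4.68 and 4.90 against 3.08, 2.92 and 3.65 FPKM. For both, all knockout values were above the wild type, with log2 differences of 0.37 and 0.37 (adjusted p = 0.174 and 0.193 by limma). Of the 17 biogenesis genes, 12 differences were positive and 5 negative. Among the negative ones were Gabpb1 (-0.35, and -0.21 without BLM3) and Ssbp1 (-0.22), with groups apart, and Tefm (-0.37), with overlap. Gabpa shares exon sequence with Atp5j on the opposite strand, and the use of strand in counting is not given.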

How the data were processed

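RNA-seq was measured in 6 libraries made from total RNA with a stranded kit, per the labels' protocols. The authors deposited FPKM per gene and library, per the file headers, with GRCm38 as the build in the submitters' processing notes. Aligner, quantifier, annotation and use of strand: not given in the sources used here. Read depth is unknown (sums of 266100 to 294500 FPKM per library), so no counting interval is given. Columns were assigned to groups by name; their numbers differ from the replicate numbers in the titles, so each column stands for a group. The columns named only for the exposure were taken as wild type.

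The 10696 genes whose mean reached 1 FPKM (1093 were left out) were compared as log2(FPKM + 1), a pseudocount of 1, with limma 3.58.1 in R 4.3.3 (lmFit, then eBayes with a trend), two-sided, over all 6 libraries without covariates, adjusted by Benjamini-Hochberg across every gene tested, with the threshold at 0.05. The log scale understates differences of low genes. The fit was also run on simulated data, whose outcome is not used here. Differences are knockout minus wild type. The members and lists were chosen with earlier results of these data known. Named genes are the 2 most positive and 2 most negative members of each complex, fixed core subunits, isoform sets, members under the minimum and, in each other list, the 2 smallest p; other genes given singly were chosen after their values were seen. 1 gene that this rule includes is not reported here by name. Length is that of the transcript with the longest coding sequence in GENCODE M21. Of the members, 86 have the same coordinates there, and 32 share exon sequence with another protein-coding gene (27 on the opposite strand). Pseudogenes named by the member's own symbol exist for 5 (Atp5c1, Atp5k, Atp5l, Ndufab1 and Uqcrh). Values of members with shared exons or such pseudogenes are less certain. Pseudogenes under other names were not searched for, so their absence is not shown for any member. Alternatives were other pseudocounts, minimum levels, TPM, quantile normalization, median centring, array weights, removal of a length and GC trend, and leaving out each library.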

Additional observations from a re-analysis of the deposited data

How the results depend on the processing

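No member was called under any setting except array weights, which called 1 higher (Atp5b) and 18 lower, giving BLM1 a weight of 6.086 and BLM3 0.229; over all genes they called 942 higher and 992 lower (8.81% and 9.27%). A minimum of 5 FPKM called 17 genes higher and 58 lower, TPM 41 higher, and leaving out 1 library 0 to 144 higher and 0 to 267 lower (both highest without BLM3, and both 0 without A20-3). Array weights called 2 higher and 7 lower among other assembly genes (0 to 2 lower when leaving out 1 library), 1 lower among coenzyme Q genes, and 3 higher and 1 lower among biogenesis genes. Removing the length and GC trend gave medians of -0.020 for all members, 0.062 for complex I core, -0.098 for complex I accessory, -0.022 for complex I assembly, 0.136 for complex II, 0.057 for complex III, 0.021 for complex IV, -0.016 for complex IV assembly and -0.0088 for other assembly genes. TPM gave medians of 0.016 for complex I core, -0.077 for complex I assembly, 0.015 for other assembly genes, 0.16 for coenzyme Q, 0.14 for the citric acid cycle and 0.22 for biogenesis. The complex I assembly median was -0.071 with a pseudocount of 5, -0.34 at a minimum of 5 FPKM and -0.011 with array weights; that of complex IV assembly was -0.27 at that minimum, -0.23 with array weights and -0.22 to -0.084 when leaving out 1 library; that of other assembly genes was -0.095 at that minimum. Leaving out 1 library gave -0.022 to 0.11 for coenzyme Q (lowest without BLM3) and 0.039 to 0.15 for biogenesis (lowest without A20-3). The length trend moved 20 of 38 named genes by more than their SE; the cause of these shifts was not tested. No paired analysis was possible because the column numbers differ from the replicate numbers that the titles give. Read depth is unknown, so what it limits cannot be stated, and 3 libraries a group leave wide errors.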
